A study of Homo sapiens with 20 samples.

Results

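ZEB1, ZEB2, SNAI1, SNAI2, TWIST1, TWIST2, PRRX1 and FOXC2 are transcription factors known for driving the epithelial-mesenchymal transition (EMT), the loss of epithelial junctions and gain of motile, fibroblast-like properties. Their rows were taken by gene symbol and not by a threshold on a measured value. The factors themselves were chosen with earlier results of these data known. These 8 genes are 8 of the 25411 RefSeq gene rows for which reads were counted. Each of the 8 has a row in all 20 libraries of the series. Of these, 7 had enough reads to enter the test among the 14 libraries that are not clones, where FOXC2 fell below the filter on low counts, and 6 entered the fits of the clones, where PRRX1 fell below it as well.

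The study measured total RNA of cultured BEAS-2B, human bronchial epithelial cells immortalised with viral genes, by RNA sequencing, and its title names a lasting mesenchymal phenotype and ZEB1 as its subject. Cells were left unexposed (Control_3D, n = 4) or given nickel chloride for 3 days (Ni_3D, n = 2), and Ni_3D+14D (n = 2) is labelled with 14 more days. The long experiment had unexposed cells (Control_6W, n = 2), cells after 6 weeks in nickel (Ni_6W, n = 2) and cells washed and grown nickel-free for 2 weeks afterwards (Ni_6W+2W, n = 2). Ni_clone (n = 6) holds 1 library from each of 6 populations grown in nickel-free medium from single picked colonies, after 6 weeks in nickel chloride at 100 mM as the labels print the dose. The labels give no dose for the other groups. By the labels every library comes from this immortalised line, though Control_3D replicate 1 and Ni_3D replicate 1 stood apart in the markers given below. The labels name no control clones and no control for the further 14 days or 2 weeks. In Ni_3D+14D, Ni_6W+2W and the clones nickel therefore cannot be told apart from culture time, handling or cloning. The labels do not say that replicates came from separate cultures, and p-values then measure the spread between these libraries, which may be technical.

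In the deposited files, on build hg19, ZEB1 spans chr10:31610064-31818742 on the plus strand (6 RefSeq transcripts), TWIST2 chr2:239756673-239832244 on the plus strand and TWIST1 chr7:19155091-19157295 on the minus strand. SNAI1 lies at chr20:48599513-48605420 (plus), SNAI2 at chr8:49830239-49833999 (minus), PRRX1 at chr1:170633313-170708541 (plus) and FOXC2 at chr16:86600857-86602537 (plus). The ZEB2 row is placed at chr2:145268952-145277958 on the minus strand, only 9007 bases, with 3 transcripts assigned to it. Values below are given per row and not per transcript or exon. How reads were assigned to a row is not given in the sources used here. Whether a row holds the reads of all exons of its gene is therefore not known, least of all for ZEB2.

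In epithelial cells ZEB and SNAI proteins bind the DNA motif CACCTG in promoters of junction genes such as CDH1, which encodes E-cadherin, and recruit corepressors there. TWIST proteins are basic helix-loop-helix factors that bind the wider motif CANNTG, PRRX1 is a homeobox factor of limb and connective tissue, and FOXC2 is a forkhead factor of lymphatic and mesenchymal tissue. The ZEB factors and the miR-200 microRNAs repress each other, SNAI proteins are made and degraded quickly, and bronchial cells can switch on several of these factors under TGF-beta.

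The 250 bases before the transcription start were read from RefSeq promoters on build GRCh38.p14, where 4 of the 8 members had an entry, ZEB1 with 7 windows for its alternative starts. SNAI1, SNAI2, TWIST1 and FOXC2 had none. The sequences below belong to ZEB1 (its most upstream window, chr10:31318167-31318416, plus strand) and TWIST2 (chr2:238847835-238848084, plus strand), shown because these genes were low in the same libraries, and to ZEB2 (chr2:144520120-144520369, minus strand), the paralogue that was not. Capitals mark CACCTG on either strand, which reads CAGGTG on the other, and sequences run 5′ to 3′ on the gene's strand.
ZEB1: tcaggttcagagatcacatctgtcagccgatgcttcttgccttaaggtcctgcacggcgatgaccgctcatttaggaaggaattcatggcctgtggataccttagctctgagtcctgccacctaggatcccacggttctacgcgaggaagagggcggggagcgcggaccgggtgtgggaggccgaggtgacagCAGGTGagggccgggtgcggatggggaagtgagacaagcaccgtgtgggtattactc
TWIST2: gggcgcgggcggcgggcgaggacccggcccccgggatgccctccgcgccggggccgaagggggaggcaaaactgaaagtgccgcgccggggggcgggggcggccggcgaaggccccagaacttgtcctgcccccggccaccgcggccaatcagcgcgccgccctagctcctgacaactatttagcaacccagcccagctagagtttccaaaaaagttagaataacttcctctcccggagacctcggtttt
ZEB2: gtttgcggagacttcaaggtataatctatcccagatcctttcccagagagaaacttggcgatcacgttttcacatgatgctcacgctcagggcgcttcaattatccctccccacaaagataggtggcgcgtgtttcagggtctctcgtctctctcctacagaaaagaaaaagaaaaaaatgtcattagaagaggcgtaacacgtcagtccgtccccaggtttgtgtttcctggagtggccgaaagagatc
The printed ZEB1 window holds the motif once, at position 194 counted from 1 at the 5′ end, and the window of another ZEB1 start, chr10:31318966-31319215, holds it at positions 9 and 166. The motif was in none of the other 5 ZEB1 windows, and in neither the TWIST2 nor the ZEB2 window. Among all 35116 RefSeq windows of this length, 17.5% held it and 2.53% held it at least 2 times, so its presence in a window is common. The TWIST2 window has 26 CpG dinucleotides and a GC content of 68.4%, the printed ZEB1 window 15 and 59.2% (7 to 27 and 42.4% to 73.6% over its 7 windows), and the ZEB2 window 12 and 48.0%, against medians of 11 and 58.0% over all windows. ZEB1 and the noncoding ZEB1-AS1 are read from opposite strands, and their nearest starts lie 107 bases apart. How reads were counted by strand is not given in the sources used here, so where ZEB1 and ZEB1-AS1 overlap their reads cannot be told apart.

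Libraries held between 8609243 reads (Control_3D replicate 4) and 88848786 reads, and the 2 Control_6W libraries, the comparators of all long exposures, held 17454710 and 18610847. Keratins KRT8 (186 to 836 CPM) and KRT18 (134 to 388 CPM) were present in every library, whereas TP63, a marker of basal bronchial cells, reached at most 0.214 CPM and the median of KRT5 was 0. CPM are counts scaled to library size with TMM factors over all 20 libraries. VIM (1528 to 4270 CPM) and COL1A1 (533 to 6781 CPM) were high in every library, controls included, while DCN reached 0.0446 CPM, and the immune gene CD3E and the endothelial gene PECAM1 reached at most 0.0892 CPM. Other markers of those lists were read, with CD68 at 22.4 to 81.7 CPM and CD14 at 5.64 to 34.0 CPM in every library, and VWF at 0.0713 to 3.16 CPM. Control_3D replicate 1 and Ni_3D replicate 1 stood apart from the other 18 libraries. They held ESR1 at 3.52 and 10.7 CPM (0 elsewhere), TFF1 at 20.1 and 33.3 CPM (at most 0.116 elsewhere) and CDH1 at 11.4 and 29.1 CPM (at most 2.05 elsewhere). Of 12 markers of oestrogen receptor positive luminal cells, 10 and 11 reached 1 CPM in these libraries and 2 to 5 in the others, and the summed level was 88.9 to 215 CPM in Control_3D, 169 to 389 CPM in Ni_3D and 92.9 to 202 CPM in the other groups. The 2 closest pairs of libraries by their counts crossed group labels. Over 190 pairs, the lowest chi-square per degree of freedom (1 where counting error is all there is) was 9.33, between the replicate 2 libraries of Ni_6W and Ni_6W+2W. The next, 11.6, was between Control_3D replicate 3 and Control_6W replicate 1, followed by 11.8 between Control_3D replicates 3 and 4, in the same group. This measure grows with the number of reads, so libraries with few reads lie closer to others.

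The 8 factors differed widely in abundance. On the scale that corrects for gene length and library size (RPKM, as deposited), TWIST1 averaged 14.2 over the 20 libraries, ZEB2 10.1 and TWIST2 6.60. SNAI1 (1.65), SNAI2 (1.53) and ZEB1 (1.50) formed a second tier with nearly equal mean RPKM. PRRX1 (0.051) and FOXC2 (0.050) were at the edge of detection, with no reads in 4 and 5 libraries. By the RPKM of these rows, ZEB1 was thus scarce next to its paralogue ZEB2 in every library. The ratio of ZEB1 to ZEB2 RPKM was 0.0130 to 0.0133 in Control_6W, 0.257 to 0.316 in Ni_6W and 0.0961 to 0.237 in the clones. These ratios rest on the short ZEB2 row, which may not hold the reads of the whole gene. ZEB2 was also the steadiest member. The SD of log2(CPM + 0.5) over libraries was 0.35 for ZEB2, 0.57 for TWIST1, 0.67 for TWIST2, 0.89 for SNAI1, 1.23 for SNAI2 and 1.29 for ZEB1. For PRRX1 and FOXC2 the added 0.5 exceeds most of their levels, and no such spread is given.

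**Figure D1:**
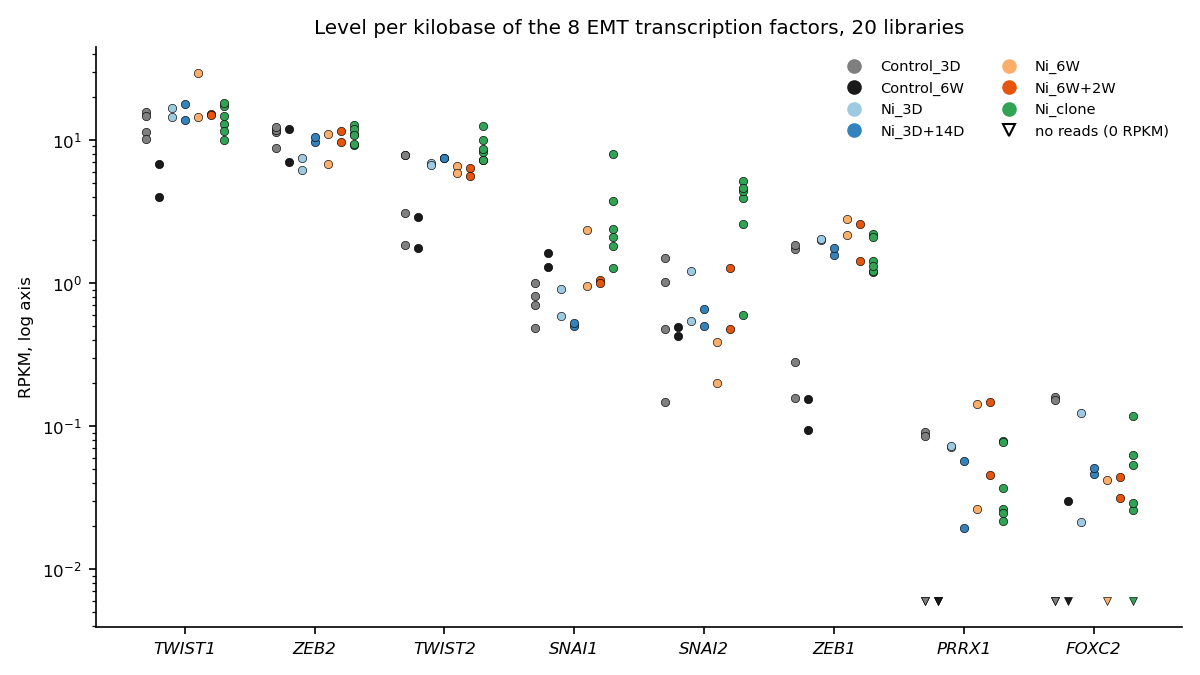
RPKM of the 8 factors in each of the 20 libraries, on a log axis, with groups by colour and triangles for libraries with no reads. TWIST1, ZEB2 and TWIST2 lie above the other 5 factors in most libraries, and ZEB1 spans from 0.0939 to 2.82 RPKM.

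Every library of nickel-exposed or post-nickel cells held more ZEB1, TWIST1 and TWIST2 than both 6-week controls, a pattern whose share over all genes was not counted. The 4 unexposed Control_3D libraries also lay above both for ZEB1 (1.05 to 12.4 against at most 0.986 CPM) and TWIST1 (19.1 to 30.3 against at most 13.0 CPM). Control_6W lay wholly below Control_3D for 7.6% of all genes. No factor passed the test after the 3-day exposure. A gene was called where the adjusted p was under 0.05, and adjusted p-values come from the quasi-likelihood F test of edgeR, adjusted as Benjamini and Hochberg describe over all genes tested (14927, or 14172 for clones against Control_6W). In Ni_6W against Control_6W 2 factors were called, ZEB1 and TWIST1, both up, where 1.25% of all genes were called up (2.47% in either direction). In clones against Control_6W 3 were called up, ZEB1, TWIST1 and TWIST2, where 2.89% of all genes were called up (5.26% in either direction). In Ni_6W+2W against Control_6W edgeR called 0 factors and 0% of all genes. There, 4 factors (ZEB1, TWIST1, TWIST2 and PRRX1) had an unadjusted p under 0.05 and DESeq2 called 2, ZEB1 and TWIST1. In Ni_3D against Control_3D edgeR called 0 factors, where 2.83% of all genes were called up and 1.51% down (4.33% in all). ZEB2 alone had an unadjusted p under 0.05, and DESeq2 called 0. In Ni_3D+14D against Control_3D edgeR called 0 factors and 0% of all genes, 0 factors had an unadjusted p under 0.05 and DESeq2 called 0. The long-exposure comparisons share the same 2 Control_6W libraries and both short-exposure comparisons share the 4 Control_3D libraries, so the comparisons within each set are not independent.

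Groups that did not overlap were more frequent than calls, and common among all genes. In Ni_6W, ZEB1, TWIST1, TWIST2 and PRRX1 lay above both controls in both libraries and SNAI2 below them, beside 24.4% of all genes wholly above and 22.7% wholly below. In Ni_6W+2W these 4 and FOXC2 (2 reads in each library) lay above and SNAI1 below, beside 23.8% and 20.4% of all genes. Among the clones 5 factors lay above both controls, ZEB1, TWIST1, TWIST2, SNAI2 and PRRX1, and 0 below, beside 11.6% and 12.5% of all genes. PRRX1 had 0 reads in both Control_6W libraries and as few as 1 in a clone, so its place above them rests on very few reads. In Ni_3D, ZEB1 lay above all 4 controls and ZEB2 below them (20% and 18.5% of all genes), and in Ni_3D+14D 0 factors lay wholly above or below (11.6% and 10.3%). From Ni_6W to Ni_6W+2W edgeR called 0 factors and 0% of all genes, 0 factors had an unadjusted p under 0.05, DESeq2 called 0, and SNAI2 alone lay wholly above (13.6% of all genes above and 12.5% below).

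**Figure D2:**
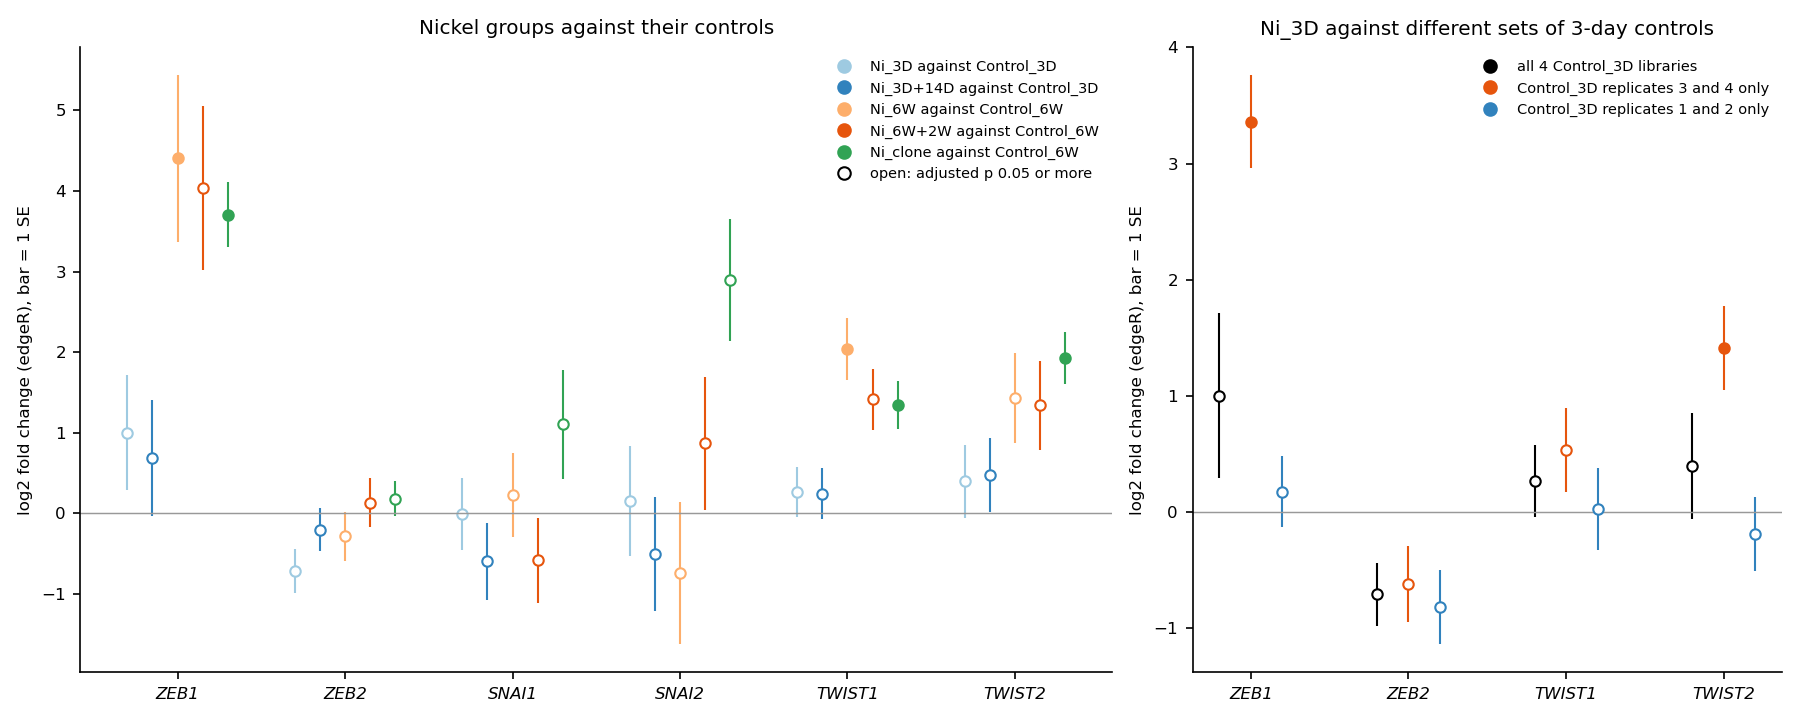
Left, log2 fold change with 1 SE for ZEB1, ZEB2, SNAI1, SNAI2, TWIST1 and TWIST2 in the 5 comparisons with a control, where open symbols have an adjusted p of 0.05 or more. Right, Ni_3D for ZEB1, ZEB2, TWIST1 and TWIST2 against all 4 Control_3D libraries, against replicates 3 and 4 alone and against replicates 1 and 2 alone. ZEB1 against Control_3D moves from 0.17 to 3.36 with the choice of control libraries.

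ZEB1, a zinc-finger and homeodomain repressor of CDH1, was nearly silent in the 6-week controls. It was higher in every library of cells that had met nickel, and also in the unexposed Control_3D replicates 1 and 2 (11.9 and 12.4 CPM). Control_6W held 0.986 and 0.608 CPM (18 and 10 reads) and Ni_6W 15.9 and 18.1 CPM. Every Ni_6W library was above every control, and the difference was 4.40 on the log2 scale (SE 1.03, a 21.2-fold rise, edgeR adjusted p = 0.0497). The call sat at the threshold. The adjusted p was 0.103 without Control_6W replicate 1, 0.235 without Control_6W replicate 2, 0.255 without Ni_6W replicate 1 and 0.0815 with no filter on low counts, with log2 differences of 4.10 to 4.79. After 2 weeks without nickel the libraries held 9.98 and 16.5 CPM, again far above both controls. That difference was 4.04 (SE 1.02) with an edgeR adjusted p of 0.256, 0.00116 by DESeq2 and 0.00131 in the fit with the replicate number as a block. Between Ni_6W+2W and Ni_6W the ZEB1 libraries overlapped, and the difference was -0.37 (SE 0.85, edgeR adjusted p = 0.944), which leaves both a fall and a rise within its error.

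In the 6 clones ZEB1 ran from 7.75 CPM (clone 2) through a median of 9.30 to 14.6 CPM (clone 6). All clones were above both Control_6W libraries, the lowest, at 7.75 CPM, standing against 0.986 CPM in the higher of them. The clones rose by 3.71 on the log2 scale over Control_6W (SE 0.40, 13.1-fold, edgeR adjusted p = 0.00298), and by DESeq2 the adjusted p was 1.08e-15. Without Control_6W replicate 2, which leaves a single control assumed to vary like the clones, the difference was 3.40 and the adjusted p 0.0738. With a replicate block it was 3.75 and 0.0613. Against the washed, uncloned Ni_6W+2W cells the clones overlapped in ZEB1, with a difference of -0.35 (SE 0.29, edgeR adjusted p = 0.878).

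The 3-day controls fell into 2 levels of ZEB1, and the 3-day differences moved with the controls used. Control_3D replicates 1 to 4 held 11.9, 12.4, 1.05 and 1.76 CPM (536, 253, 27 and 15 reads). Ni_3D held 13.1 and 14.5 CPM and Ni_3D+14D 10.4 and 11.9 CPM. Replicates 1 and 2 were thus at the level of the nickel groups, whereas replicates 3 and 4 were at that of Control_6W. Over all 4 controls the Ni_3D difference was 1.002 (SE 0.71, edgeR adjusted p = 0.410) and the Ni_3D+14D difference 0.68 (SE 0.72, adjusted p = 0.979). Without replicates 1 and 2 they were 3.36 (adjusted p = 0.00200) and 3.06 (adjusted p = 0.00490). Without replicates 3 and 4 they were 0.17 (adjusted p = 0.806) and -0.13 (adjusted p = 0.9997). Without the 2 libraries that hold ESR1 and TFF1 the Ni_3D difference was 1.47 (adjusted p = 0.426), and their part in it was not tested further.

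Control_6W against Control_3D showed the same dependence. ZEB1 in Control_6W was below all 4 Control_3D libraries, by a narrow margin for replicate 3 (1.05 against 0.986 CPM), and the difference was -3.12 (SE 0.94, edgeR adjusted p = 0.577). TWIST1 also lay wholly below and SNAI1 wholly above Control_3D, beside 7.6% and 8.88% of all genes. There edgeR called 0 factors and 0% of all genes, 3 factors (ZEB1, TWIST1 and TWIST2) had an unadjusted p under 0.05 and DESeq2 called 1, ZEB1. With replicates 3 and 4 of Control_3D left out the ZEB1 difference was -3.92 (adjusted p = 0.000484), and with replicates 1 and 2 left out it was -0.73 (adjusted p = 1). Whether the ZEB1 response was larger after 6 weeks than after 3 days therefore depended on the controls as well. The difference of the responses was 3.40 (SE 1.25, edgeR adjusted p = 0.368), 4.22 without Control_3D replicates 3 and 4 (adjusted p = 0.00309) and 1.04 without replicates 1 and 2 (adjusted p = 0.579). For the later times, Ni_6W+2W minus Ni_3D+14D, it was 3.35 (SE 1.25, adjusted p = 0.9999). In both differences of responses edgeR called 0 factors and 0% of all genes. In the first, 2 factors had an unadjusted p under 0.05 and DESeq2 called 1, TWIST1, and in the second 3 had an unadjusted p under 0.05 and DESeq2 called 0.

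**Figure D3:**
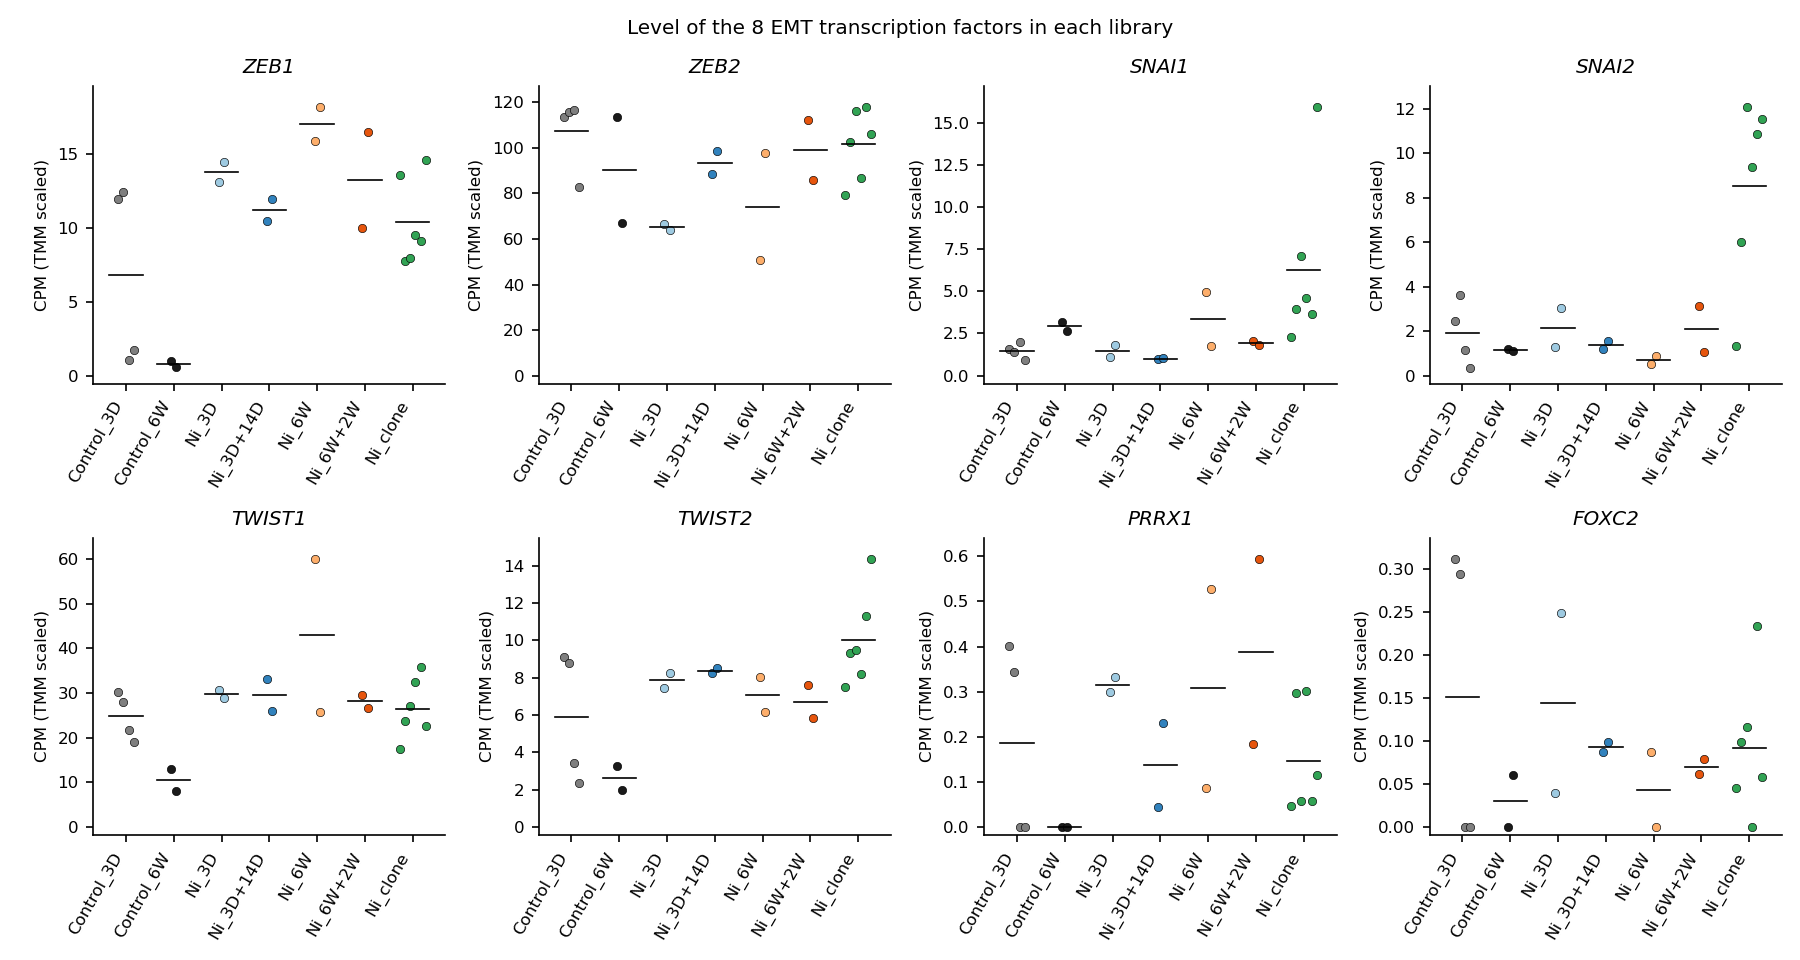
CPM of each factor by group, with 1 point per library and a bar at the group mean. ZEB1 and TWIST2 have their 4 lowest libraries in Control_3D replicates 3 and 4 and Control_6W, while ZEB2 does not. PRRX1 has no reads in those 4.

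ZEB1-AS1, a noncoding RNA read from the opposite strand next to the ZEB1 starts, followed ZEB1 over groups. It held 0.329 and 0.243 CPM in Control_6W and 4.31 and 3.96 CPM in Ni_6W. Both nickel libraries were above both controls, and the rise was 3.84 on the log2 scale (SE 0.77, edgeR adjusted p = 0.0497). Like ZEB1, it was not called without Control_6W replicate 1 (adjusted p = 0.0672), Control_6W replicate 2 (0.212) or Ni_6W replicate 1 (0.255). In the clones it ran from 1.84 through a median of 2.03 to 3.71 CPM and rose by 2.99 (SE 0.48, adjusted p = 0.0159), with an adjusted p of 0.153 without Control_6W replicate 2. In Ni_6W+2W the difference was 3.26 (SE 0.76, adjusted p = 0.256). In Control_3D it held 2.03, 1.86, 0.426 and 1.40 CPM, so the split seen in ZEB1 was present but less wide, and Ni_3D held 6.39 and 2.30 CPM, the higher in the library with ESR1 and TFF1. The Ni_3D difference of 1.60 (SE 0.53, adjusted p = 0.0913) was 0.91 without the 2 ESR1 libraries (adjusted p = 0.493) and 2.38 without Control_3D replicates 1 and 2 (adjusted p = 0.0490). The ratio of ZEB1-AS1 to ZEB1 RPKM ran from 0.398 to 2.01 in Control_3D, from 0.833 to 0.965 in Control_6W and from 0.404 to 0.730 in the clones.

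**Figure D4:**
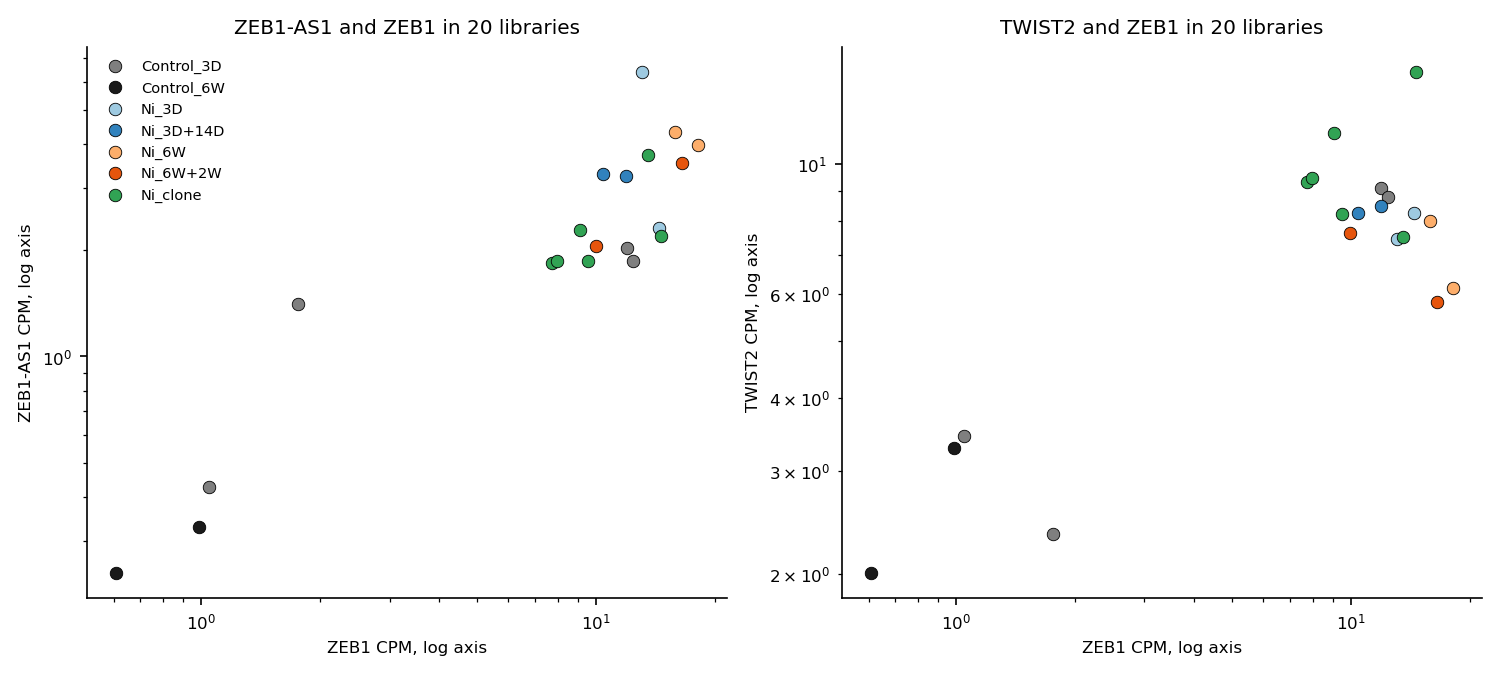
CPM of ZEB1 against ZEB1-AS1 (left) and TWIST2 (right) in the 20 libraries, both axes logarithmic, coloured by group. Control_3D replicates 3 and 4 and both Control_6W libraries lie apart at the lower left, with 0.608 to 1.76 CPM of ZEB1.

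ZEB2, the paralogue of ZEB1 with the same motif, did not show this pattern. Control_6W held 114 and 67.1 CPM, Ni_6W 50.7 and 97.6 CPM and Ni_6W+2W 112 and 85.9 CPM, and the clones ran from 79.5 through a median of 104 to 118 CPM. All of these overlapped the controls, and in none of the long-exposure comparisons was ZEB2 called. Ni_3D held 66.6 and 63.8 CPM, below all 4 Control_3D libraries at 113, 116, 117 and 83.0 CPM. The difference was -0.71 (SE 0.27, edgeR adjusted p = 0.135) and did not pass the test. It was -0.73 without the 2 ESR1 libraries, -0.62 against Control_3D replicates 3 and 4 alone and -0.82 against replicates 1 and 2 alone, so unlike that of ZEB1 its size did not hang on the choice of controls. In Ni_3D+14D ZEB2 held 88.3 and 98.6 CPM, above both Ni_3D libraries, with a difference of 0.50 (SE 0.31, adjusted p = 0.523). From Ni_3D to Ni_3D+14D edgeR called 0 factors, where 0.255% of all genes were called (0.121% up and 0.134% down), and ZEB2 lay wholly above and ZEB1, SNAI1 and PRRX1 wholly below (27.4% and 26.8% of all genes). There 0 factors had an unadjusted p under 0.05 and DESeq2 called 0. The count of ZEB2 rests on a row placed on 9007 bases, and reads of the rest of the gene may or may not be in it.

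TWIST1, a basic helix-loop-helix factor of mesoderm, was the most abundant factor by RPKM and the second to be called after 6 weeks. Control_6W held 13.0 and 8.02 CPM and Ni_6W 60.1 and 25.9 CPM. Both nickel libraries were above both controls but lay far from each other, and the rise was 2.04 on the log2 scale (SE 0.38, 4.12-fold, edgeR adjusted p = 0.0497). Without Ni_6W replicate 1, the highest library of the series, it was 1.29 (adjusted p = 0.255), and without Control_6W replicate 2 it was 1.72 (adjusted p = 0.212). Ni_6W+2W held 29.5 and 26.7 CPM, a difference of 1.42 (SE 0.37, adjusted p = 0.256, and 0.026 by DESeq2). The clones ran from 17.5 (clone 1) through a median of 25.4 to 35.8 CPM (clone 5), all above both controls, and rose by 1.35 (SE 0.30, adjusted p = 0.0343). That call was lost without Control_6W replicate 2 (1.03, adjusted p = 0.281), without clone 2 (adjusted p = 0.0648), clone 3 (0.066) or clone 4 (0.063), and with a replicate block (0.344).

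At 3 days TWIST1 showed little. Control_3D held 30.3, 28.1, 21.8 and 19.1 CPM and Ni_3D 30.8 and 28.8 CPM. Replicates 3 and 4 were again the lower controls, but less apart than for ZEB1, and the groups overlapped (difference 0.27, SE 0.31, edgeR adjusted p = 0.626). Ni_3D+14D held 33.2 and 26.1 CPM. Control_6W was below every Control_3D library, by -1.25 on the log2 scale (SE 0.34, adjusted p = 0.577). The TWIST1 response was 1.77 larger in Ni_6W than in Ni_3D (SE 0.49), with an edgeR adjusted p of 0.275, 0.0373 by DESeq2 and 0.0207 without Ni_6W replicate 2. Between the later times the difference was 1.17 (SE 0.49, adjusted p = 0.9999).

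TWIST2, the TWIST1 paralogue of skin and connective tissue, was lower than TWIST1 by RPKM in all but 1 library, the exception being clone 6 with a TWIST2 to TWIST1 ratio of 1.09. Control_6W held 3.29 and 2.01 CPM, Ni_6W 8.01 and 6.16 CPM and Ni_6W+2W 7.62 and 5.82 CPM. All 4 nickel libraries were above both controls, but the differences of 1.43 (SE 0.56, edgeR adjusted p = 0.130, and 0.041 with a replicate block) and 1.34 (SE 0.56, adjusted p = 0.335) did not pass the test. The clones ran from 7.52 (clone 1) through a median of 9.42 to 14.4 CPM (clone 6) and rose by 1.93 (SE 0.32, 3.82-fold, adjusted p = 0.0177). Without Control_6W replicate 2 that rise was 1.62 (adjusted p = 0.169), and with a replicate block 1.72 (adjusted p = 0.233).

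The 3-day controls of TWIST2 split like those of ZEB1, at 9.09, 8.78, 3.45 and 2.34 CPM. Ni_3D held 7.46 and 8.26 CPM and Ni_3D+14D 8.25 and 8.50 CPM, between the 2 levels of the controls. The Ni_3D difference was 0.40 (SE 0.45, edgeR adjusted p = 0.621), 1.41 without Control_3D replicates 1 and 2 (adjusted p = 0.0388) and -0.19 without replicates 3 and 4 (adjusted p = 0.793). The Ni_3D+14D difference was 0.48 (SE 0.46, adjusted p = 0.979), 1.50 without replicates 1 and 2 (adjusted p = 0.101) and -0.10 without replicates 3 and 4. Control_6W against Control_3D gave -1.19 (SE 0.50, adjusted p = 0.586), and -1.75 without Control_3D replicates 3 and 4 (adjusted p = 0.0260).

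SNAI1 (Snail), a fast-turnover repressor of CDH1, was not at its lowest in the 6-week controls. Control_3D held 1.61, 1.37, 1.97 and 0.936 CPM and Control_6W 3.18 and 2.67 CPM, above all 4, with a difference of 0.95 (SE 0.45, edgeR adjusted p = 0.592). Ni_6W held 4.96 and 1.76 CPM, on either side of the controls, and Ni_6W+2W 2.08 and 1.82 CPM, below both. Ni_3D held 1.11 and 1.84 CPM and Ni_3D+14D 0.965 and 1.02 CPM, inside the range of Control_3D. The clones ran from 2.29 (clone 1) through a median of 4.31 to 15.9 CPM (clone 6). They overlapped Control_6W (difference 1.10, SE 0.67, adjusted p = 0.338), but all 6 were above both Ni_6W+2W libraries, by 1.67 (SE 0.70, adjusted p = 0.748), as were 4% of all genes, with 4.64% below both. In this comparison of clones with Ni_6W+2W edgeR called 0 factors, where 0.028% of all genes were called (0.014% up and 0.014% down), 2 factors (SNAI1 and SNAI2) had an unadjusted p under 0.05 and DESeq2 called 0.

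SNAI2 (Slug), its paralogue expressed in basal epithelium and neural crest, was highest in 5 of the 6 clones, while clone 1 lay within the range of the uncloned libraries. Control_6W held 1.205 and 1.09 CPM, Ni_6W 0.523 and 0.880 CPM, below both, and Ni_6W+2W 3.12 and 1.07 CPM. Control_3D held 2.47, 3.63, 1.16 and 0.351 CPM, with replicates 3 and 4 the lower again, Ni_3D 1.27 and 3.04 CPM and Ni_3D+14D 1.18 and 1.58 CPM. Clone 1 held 1.33 CPM and the other 5 clones 6.01 to 12.05 CPM (the median over all 6 clones was 10.1 CPM). Clone 1 was thus at the level of the uncloned groups, and the 5 others were above every uncloned library. The share of all genes with that pattern was not counted. The difference from Control_6W was 2.89 (SE 0.76, edgeR adjusted p = 0.0570). It passed without clone 1 (3.12, adjusted p = 0.00455) and by DESeq2 (adjusted p = 0.000195). Against Ni_6W+2W it was 2.01 (SE 0.76, edgeR adjusted p = 0.712). The ratio of SNAI2 to SNAI1 RPKM was 0.307 to 0.331 in Control_6W and 0.469 to 2.41 in the clones, so which SNAI gene was higher differed from clone to clone.

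**Figure D5:**
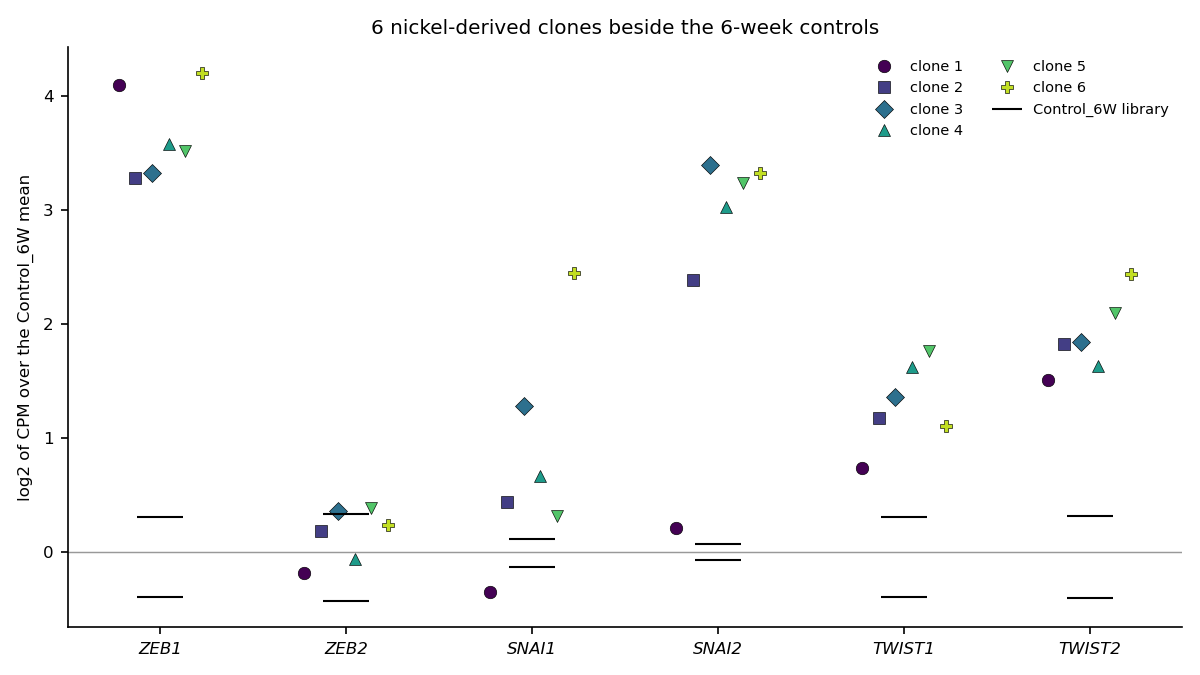
Log2 of CPM in each clone over the Control_6W mean, with black dashes for the 2 Control_6W libraries. All 6 clones are above the dashes for ZEB1, TWIST1 and TWIST2, clone 1 stands apart from the other 5 for SNAI2 (1.33 against 6.01 to 12.05 CPM) and clone 6 for SNAI1 (15.9 CPM).

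PRRX1 and FOXC2 were too scarce for a fold change in most groups. PRRX1 had 18, 7, 0 and 0 reads in Control_3D and 0 and 0 in Control_6W, a count that allows up to 0.0832 CPM over both libraries at 3 reads. It had 15 and 28 reads in Ni_3D, 1 and 7 in Ni_3D+14D and 2 and 6 in Ni_6W. After the wash it had 6 and 15 reads, and the 6 clones held 17 together, at least 1 in each. Against that limit of 3 reads over the group, its pooled level was 2.77-fold higher in Ni_6W, 4.41-fold in Ni_6W+2W and 1.83-fold in the clones. These values leave out the counting error of the reads in the nickel groups, so the true differences may be smaller. Its 4 libraries without a read were the same 4 in which ZEB1 was lowest. In Ni_3D against all of Control_3D the ratio of pooled reads, scaled to library size, was 1.27 (95% interval 0.761 to 2.18, counting error only). FOXC2 had 14, 6, 0 and 0 reads in Control_3D, 0 and 1 in Control_6W, 2 and 21 in Ni_3D, 2 and 3 in Ni_3D+14D and 2 and 0 in Ni_6W. After the wash it had 2 and 2 reads, and the clones held 10 together. The ratio of clones to Control_6W was 3.24 with an interval of 0.460 to 140, so no difference was detectable at this depth. Of the 2 genes' other ratios of pooled reads with a read on both sides, 2 had intervals that did not include 1. These were FOXC2 in Control_6W against Control_3D (0.141, 0.00339 to 0.879) and PRRX1 in clones against Ni_6W+2W (0.416, 0.206 to 0.827). Such intervals leave out the spread between libraries, and FOXC2 had no reads in Control_3D replicates 3 and 4. In bulk RNA, fewer cells expressing a factor and less RNA per cell cannot be told apart.

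For ZEB1 and TWIST2 the same 4 libraries held the low end, and PRRX1 had no reads in them. Control_3D replicates 3 and 4 and both Control_6W libraries were the 4 lowest of 20 for ZEB1 (0.608 to 1.76 CPM against 7.75 to 18.1 CPM in the other 16) and TWIST2 (2.01 to 3.45 against 5.82 to 14.4 CPM). PRRX1 held 0 CPM there and 0.0439 to 0.594 CPM in the other 16. In these 4 libraries 3 reads would be 0.113 CPM (Control_3D replicate 3) to 0.348 CPM (Control_3D replicate 4). Some of the other 16 lie below that, so the order of PRRX1 is not settled at this depth. ZEB1-AS1 had the same 4 (0.243 to 1.40 against 1.84 to 6.39 CPM). TWIST1 shared 3 of the 4, with 8.02 to 21.8 CPM there and 17.5 to 60.1 CPM elsewhere. ZEB2, SNAI1 and SNAI2 shared 1 each, and FOXC2 had 5 libraries at 0, among them 3 of these 4. The same 4 libraries were all below the other 16 for 464 of the 13055 genes whose mean reached 1 CPM (3.55%), and all above them for 239 (1.83%). These 4 libraries are named from the ZEB1 values, so this is a description of where the low values lie and not a comparison of groups.

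Group means ordered differently by factor. For ZEB1 the order was Ni_6W (17.0 ± 1.61 CPM, SD), Ni_3D (13.8 ± 0.951), Ni_6W+2W (13.2 ± 4.60), Ni_3D+14D (11.2 ± 1.04), clones (10.4 ± 2.93), Control_3D (6.79 ± 6.23) and Control_6W (0.797 ± 0.267), with n as given for each group. Neighbours in that order overlapped except Ni_6W above Ni_3D and Control_3D above Control_6W. Control_6W lay wholly below Control_3D for 7.6% of all genes, and the share for Ni_6W above Ni_3D was not counted. For TWIST1 the order was the same except that Ni_3D+14D stood before Ni_6W+2W, from 43.0 ± 24.2 CPM in Ni_6W to 10.5 ± 3.54 CPM in Control_6W, and among neighbours Control_6W alone did not overlap the next. For TWIST2 clones came first (10.04 ± 2.48 CPM) and Control_6W last (2.65 ± 0.905 CPM), and all neighbours overlapped. SNAI1 and SNAI2 were highest in the clones (6.26 ± 4.99 and 8.52 ± 4.14 CPM) and lowest in Ni_3D+14D (0.991 ± 0.0367 CPM) and in Ni_6W (0.701 ± 0.253 CPM).

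Genes with the profile most like each factor were found by the mean absolute difference of centred log2(CPM + 0.5) over the 20 libraries, among 13054 genes whose mean reached 1 CPM, as a description with no test. Among the nearest to ZEB1 were TMTC2 (0.352), LINC00667, RHOBTB1, GPR176, LMF1 and IQCA1 (0.406), against a median of 0.995 over all genes. The nearest to TWIST2 was CCDC149 (0.249, median of all genes 0.579), followed by MARC1, S1PR3, PNPLA4 and NQO1. The nearest to TWIST1 was PPP1R26 (0.187, median 0.471), followed by RGS3, WHAMM, PPP1R35 and SIX4. SNAI1 was nearest to ZFP36 (0.388, median 0.737), TRIB1, JUNB, LYNX1 and MAGED1, of which ZFP36 and JUNB are immediate early genes. Among the nearest to SNAI2 were SOX9 (0.625, median 1.05), EID3, EGR2 and ZNF703, and ZEB2 was nearest to DHX29 (0.111, median 0.353), SEPT11, ATR, PHF20L1 and RBM27. Among the factors themselves TWIST1 and TWIST2 were closest (0.360), and ZEB1 stood nearer to TWIST2 (0.636) and TWIST1 (0.717) than to ZEB2 (1.03) or SNAI2 (1.31). Genes that vary little lie near many others on this measure, and depth is shared by all genes of a library.

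Neighbours of the loci ranged from no reads to levels like those of the factors. ZEB2-AS1 had 3 reads in all 20 libraries, FENDRR next to FOXC2 3 and FERD3L next to TWIST1 0, while HDAC9 next to TWIST1 (2.05 to 9.24 CPM), GORAB next to PRRX1 (6.01 to 14.5 CPM) and MTHFSD next to FOXC2 (11.2 to 22.01 CPM) were read in every library. The rows of the miR-200 family, which targets ZEB1 and ZEB2, had 4 reads (MIR200A), 1 (MIR200B), 3 (MIR429) and 0 (MIR200C and MIR141) over all libraries. Mature microRNAs are too short for these libraries, so their levels were not measured.

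Around the 8 factors, 7 lists of related genes were followed: other EMT factors, epithelial regulators that oppose EMT, partner proteins and corepressors, proteins that set factor stability, inducers, target genes that ZEB and SNAI repress, and mesenchymal genes. In Ni_6W 4 of 156 tested genes of these lists were called, a share near the 2.47% of all genes. COL1A2, a chain of type I collagen, held 43.8 and 12.3 CPM against 0.548 and 0.182 CPM and rose by 6.24 on the log2 scale (SE 1.26), and LAMA3, a laminin chain of epithelial basement membrane, rose by 1.42 (SE 0.32). MPP7, a junctional scaffold protein, fell by 1.84 (SE 0.36), all with an edgeR adjusted p of 0.0497, and POSTN had no reads in Ni_6W against 1.42 and 1.88 CPM. Each of COL1A2, LAMA3 and MPP7 lost its call without Control_6W replicate 1 (adjusted p of 0.0734, 0.116 and 0.0613), without Control_6W replicate 2 (0.212 for all of them) and without Ni_6W replicate 1 (0.255). Of 33 repressed target genes 1 rose and 1 fell (median 0.07, all genes 0.03), and of 21 mesenchymal genes 1 rose and 1 fell (median -0.03). Among the other 5 lists edgeR called 0 genes. In Ni_6W+2W edgeR called 0 of the 156, 20 had an unadjusted p under 0.05 and DESeq2 called 4.

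In the clones 10 of 143 tested list genes were called, where 5.26% of all genes were. HIF1A, an oxygen-regulated transcription factor, rose by 1.33 (SE 0.20, edgeR adjusted p = 0.0146) and SOX4, a further EMT factor, by 1.50 (SE 0.26, adjusted p = 0.0186). COL5A1, a fibrillar collagen chain, rose by 2.44 (SE 0.47, adjusted p = 0.0265) and ESRP2, an epithelial splicing regulator, by 3.27 (SE 0.66, adjusted p = 0.0275). The called genes thus held both an epithelial regulator and a collagen. SIN3A (corepressor scaffold), EGFR and MAP7 also rose, and RCOR1 (a CoREST corepressor), MPP7 and CLDN1 fell, with adjusted p from 0.0315 to 0.0448. All 10 lost their call without Control_6W replicate 2, with adjusted p of 0.0677 for HIF1A, 0.119 for SOX4, 0.212 for COL5A1 and 0.236 for ESRP2. COL5A1 and ESRP2 also lost it without Control_6W replicate 1 (0.0600 and 0.0503) or clone 2 (0.0560 and 0.0539), and ESRP2 without clone 4 (0.0526). SIN3A, EGFR, MAP7, RCOR1, MPP7 and CLDN1 each lost it without clone 2, clone 3 or clone 6 as well (adjusted p of 0.0521 to 0.0873). In Control_3D all 7 of these genes that rose in the clones were lower in replicates 3 and 4 than in replicates 1 and 2. Of the 3 that fell, MPP7 (16.2, 20.4, 31.5 and 26.4 CPM in replicates 1 to 4) and CLDN1 (82.9, 99.4, 263 and 201 CPM) were higher there, and RCOR1 (74.4, 81.5, 77.4 and 67.4 CPM) did not split. The share of all genes that split this way was not counted, so the split cannot be called particular to these genes. Control_3D held ESRP2 at 7.15, 7.07, 0.891 and 1.52 CPM and COL5A1 at 593, 390, 110 and 74.2 CPM, and Control_6W held ESRP2 at 0.712 and 0.426 CPM. Per list, 1 of 17 other EMT factors rose (median 0.12, all genes 0.01), 1 of 8 epithelial regulators (1.32), 1 of 29 partners with 1 falling (0.06), 2 of 27 inducers (0.13), 1 of 25 repressed targets with 2 falling (0.31) and 1 of 20 mesenchymal genes (0.16). Of 21 stability proteins edgeR called 0 (median -0.16), 3 had an unadjusted p under 0.05 and DESeq2 called 1.

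In Ni_3D 7 of 156 list genes were called, a share near the 4.33% of all genes. KLF4, a zinc-finger factor of epithelial differentiation, rose by 1.76 (SE 0.37, edgeR adjusted p = 0.0272) and CLDN3, a tight junction claudin, by 1.59 (SE 0.38, adjusted p = 0.0372). USP27X, a deubiquitinase, rose by 1.19 (SE 0.31, adjusted p = 0.0472). SPARC, a matricellular protein, fell by 1.75 (SE 0.31, adjusted p = 0.0128), MPP7 by 1.90 (SE 0.33, adjusted p = 0.0112) and PDGFRB, a growth factor receptor of mesenchymal cells, by 1.15 (SE 0.28, adjusted p = 0.0410). POSTN (periostin) held 0 and 0.0119 CPM against 2.81, 4.22, 2.44 and 1.52 CPM. Of the 11 epithelial regulators 1 rose (median 1.43, all genes 0.03), of 33 repressed targets 1 rose and 1 fell (1.21), of 21 mesenchymal genes 3 fell (-0.93), of 22 stability proteins 1 rose (-0.11) and of 27 inducers 1 fell (0.01). Without the 2 libraries that hold ESR1 and TFF1 these medians were 0.75 over 8 epithelial regulators, 0.26 over 28 repressed targets and -1.18 over 21 mesenchymal genes, of which 2 fell. All other list calls were then lost (adjusted p of 0.0873 for KLF4, 0.195 for CLDN3, 0.154 for USP27X, 0.0548 for MPP7 and 0.0547 for PDGFRB). Without Ni_3D replicate 2 SPARC had an adjusted p of 0.116, and KLF4 0.194, PDGFRB 0.230, MPP7 0.119, USP27X 0.170 and CLDN3 0.0926. Without Ni_3D replicate 1 KLF4 had 0.0552, MPP7 0.0588, USP27X 0.187 and CLDN3 0.235. KLF4, CLDN3, USP27X and PDGFRB also lost their call without any 1 of Control_3D replicates 2, 3 and 4 (adjusted p of 0.0623 to 0.128). In Ni_3D+14D edgeR called 0 of the 156, 5 had an unadjusted p under 0.05 and DESeq2 called 0.

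The authors' deposited tables rest their 3-day comparisons on the lower controls. Their control column equals the mean RPKM of Control_3D replicates 3 and 4 for 100% of genes, with replicates 1 and 2 not in it. Values were taken as equal within 0.001 times the sum of 1 and the deposited RPKM. In the authors' deposited table for Ni_3D, ZEB1 stands at 0.218 RPKM in the control and 2.81 in nickel, with a log2 ratio of 2.90 and an adjusted p of 5.6e-15. TWIST2 stands there at 1.21 (adjusted p = 0.00429) and ZEB1-AS1 at 1.47 (adjusted p = 0.0158), while the Ni_3D column equals the mean of the 2 deposited libraries for 25.3% of genes. In the authors' deposited table for Ni_3D+14D the log2 ratios are 2.10 for ZEB1 (adjusted p = 2.26e-13) and 1.06 for TWIST2 (adjusted p = 0.000851). In the authors' deposited tables for the long exposure ZEB1 stands at 3.48 for 6 weeks of nickel (unadjusted p = 3.17e-15) and 2.70 after the wash (3.53e-14), and TWIST1 at 1.68 (5.7e-05) and 1.14 (0.000149). The long-exposure p-values stand in a column that the authors head as adjusted, and were read here as unadjusted. These log2 ratios are smaller than those of their own RPKM columns. For ZEB1 and TWIST2 the fits on all 4 Control_3D libraries, and on replicates 3 and 4 alone, had the same direction as the authors' deposited tables, whereas those on replicates 1 and 2 alone had the opposite one except for ZEB1 in Ni_3D.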

How the data were processed

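RNA of 20 BEAS-2B libraries was sequenced from a TruSeq kit, per the labels' protocols. The authors deposited raw read counts per RefSeq gene with an RPKM value beside each, per the file headers, and tables of their own comparisons (mean RPKM, log2 ratio, p-values), where some columns named as p-values hold test scores instead, as the deposited values show. STAR 2.4, DESeq, DESeq2 and the builds GRCh37 and hg19 are named in the submitters' processing notes. How reads were counted is not given in the sources used here.

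Libraries were joined by RefSeq identifier, since 28 symbols had been changed by a spreadsheet. Counts of the 14 uncloned libraries entered a single fit, 1 mean per group, with edgeR 4.0.16 (R 4.3.3; TMM, filterByExpr with a minimum count of 10 and total of 15, robust quasi-likelihood F test). The clones had a fit of their own with each comparator. The biological coefficient of variation was 29.7%, 24.7% and 24.8% in these fits. Benjamini-Hochberg adjustment ran over all genes of a comparison, with calls under 0.05. SE is the log2 fold change over the root of F. Levels are TMM-scaled CPM. The fits were tested on simulated data.

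Alternatives were DESeq2 1.42.0, other size factors, no filter, a replicate block, all 20 libraries in 1 fit, and leaving out single libraries, Control_3D replicates 1 and 2, replicates 3 and 4, or the 2 libraries with ESR1 and TFF1. The factors and the lists were chosen with earlier results of these data known. All factors are named, of each list up to 4 called genes per comparison with the smallest adjusted p, except SIN3A, EGFR, MAP7, RCOR1, MPP7 and CLDN1 in the clones which complete a count, and 5 nearest genes per factor (8 for ZEB1), some of which are not reported here. Intervals cover counting error only, and limits of 3 reads cover that of the group without reads alone.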

Additional observations from a re-analysis of the deposited data

Results flagged for a closer look

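A library far from the rest of its group was looked for in the groups of at least 4 libraries, Control_3D and the clones. Of 16 sets, each 1 factor in 1 of these groups, 2 held such a library, where chance alone places about 1 in 20. ZEB2 in Control_3D replicate 4 was 83.0 CPM, below the other 3 controls, with a gap to the nearest of 0.907 of the group's range. That library has the fewest reads of the series. SNAI1 in clone 6 was 15.9 CPM, above the other 5 clones, with a gap of 0.647 of the range.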

How the results depend on the processing

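Of the reported fold changes under the alternatives, 524 kept their direction and their side of the threshold, 129 lost a call, 25 gained it and 7 changed sign. The sign changes were all in differences that had not passed the test: TWIST2 in Ni_3D was -0.17 with a replicate block and -0.19 without Control_3D replicates 3 and 4, ZEB1 in Ni_3D+14D -0.14 and -0.13, TWIST2 in Ni_3D+14D -0.10 and -0.10, and ZEB1 in clones against Ni_6W+2W -0.68 to 0.067 when a single library is left out. Between the groups of 2 libraries, the correlation of deviations by replicate number ran from -0.429 to 0.265. Control_3D and the clones were not in this check, so it cannot settle whether replicate numbers pair the libraries. The block is given as a setting only. With the block the number of factors called was 3 in Ni_6W, 1 in Ni_6W+2W, 0 in the clones, 3 in Control_6W against Control_3D and 1 in each difference of responses. With DESeq2 it was 2 in Ni_6W+2W, 4 in the clones, 1 in Control_6W against Control_3D and 1 in the first difference of responses. With no filter it was 1 in Ni_6W. Without Control_3D replicates 1 and 2 it was 2 in Ni_3D and 1 in Ni_3D+14D, and without replicates 3 and 4 it was 2 in Control_6W against Control_3D and 1 in each difference of responses. Leaving out 1 library gave 0 to 2 factors in Ni_6W, 0 to 4 in the clones and 0 to 1 in the first difference of responses, and 0 in every other comparison. Over all genes, DESeq2 called 1880, 16, 2051, 320 and 1970 in Ni_3D, Ni_3D+14D, Ni_6W, Ni_6W+2W and the clones, where edgeR called 647, 0, 368, 0 and 746, and leaving out 1 library gave edgeR counts of 65 to 653, 0, 0 to 2871, 0 to 117 and 6 to 1504. The causes were not tested. PRRX1 and FOXC2, with at most 28 reads in a library, are limited by depth.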

Other observations

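Clone 1 differed from the other 5 clones in several genes of the lists, beside its low SNAI2 (1.33 CPM). It held COL1A2 at 0.275 CPM where the other 5 held 10.1 to 98.4 CPM, and ESRP2 at 11.8 CPM where they held 2.79 to 5.29 CPM. LAMA3 was 54.2 CPM against 19.2 to 27.9 CPM, and MAP7 6.37 CPM against 1.70 to 2.73 CPM. Its ZEB1 level, 13.6 CPM, was above that of 4 other clones, and its TWIST1, TWIST2 and SNAI1 levels were the lowest of the 6. These genes were picked after their values were seen, and a single clone has no replicate, so no test was made. KLF4 was 50.5 CPM in clone 4 and 30.9 CPM in clone 6, against 8.15 to 11.1 CPM in the other 4 clones.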
